A study of Mus musculus with 12 samples.

Results

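A set of 6 genes whose products carry the electrical impulse through the heart was followed in the left ventricle apex of mice. It held the connexin genes Gja1, Gja5 and Gjc1, the pacemaker channel genes Hcn2 and Hcn4, and Scn4b, which encodes a beta subunit of the sodium channel. The genes were chosen by name for their part in conduction and matched by symbol, which gave 6 of the 56350 gene IDs in the table. All 6 are protein-coding and passed the filter on low values, a normalised read count of at least 10 in at least 3 libraries, as did 13916 genes in all.

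Connexins assemble into gap junctions, the channels that let current pass directly between neighbouring heart muscle cells. Working ventricular muscle relies on connexin 43 (Gja1), whereas connexin 40 (Gja5) marks the atria, the Purkinje system and arterial endothelium, and connexin 45 (Gjc1) is the connexin of nodal tissue. HCN channels carry the pacemaker current, with Hcn4 best known from the sinus node and Hcn2 present in ventricular muscle. The rapid upstroke of the action potential is driven by the sodium channel, and beta subunits such as Scn4b set its gating and its place in the membrane.

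The study addressed the effect of losing lincRNA-p21, a p53-inducible noncoding transcript whose gene is Trp53cor1, on the ventricle under pressure load. Polyadenylated RNA was sequenced 8 weeks after transverse aortic constriction (TAC), a surgical narrowing of the aorta that makes the left ventricle pump against a higher pressure, or after sham surgery. The 4 groups of 3 libraries each were global lincRNA-p21 knockouts after TAC, global knockouts after sham, heterozygous littermates after TAC and heterozygous littermates after sham. The heterozygous littermates, called controls here, have 1 intact allele, so no group is wild type. Strain, sex and age, and whether a library holds 1 animal or several, are not stated in the labels, so p-values measure the spread between these libraries, which may be technical in part.

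Reads assigned to genes ran from 10323605 to 13238934 per library. Trp53cor1 had 0 reads in each of the 6 knockout libraries, which allows up to 0.0413 CPM (reads scaled to library size, 3 counts over the group, counting error only), and 0 to 4 reads in the control libraries, 4 of which had a read. The 10 ventricular muscle markers, all detected, summed to 933461 to 1184974 normalised counts per library, and 8 atrial markers to 1072 to 1726. Control sham replicate 3 stood apart: its second principal component score was −46.8, its summed endothelial markers reached 26778 against 15458 to 18667 in the other libraries, and it was the lowest of the 12 for Gja1, Hcn4 and Scn4b. Knockout TAC replicate 3 lay away from its group on the same component, at −15.6 against 22.9 and 33.7. Values of the 6 genes and of named list genes that turn on control sham replicate 3 are given with and without it.

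Of the 6 genes, 2 passed the test for TAC against sham in controls, Gja5 and Hcn2, and both were lower after TAC. Over all tested genes 21.6% passed in that comparison and 10.6% passed as lower, so 2 of 6 is near the background. No gene of the 6 passed in the same comparison in knockouts, where 0.00719% of all genes passed. Changes are differences of log2(normalised read count + 1) ± SE from limma-trend fitted to all genes and 12 libraries, with Benjamini-Hochberg adjusted p-values over all tested genes. On this scale the changes of low-count genes come out somewhat too small.

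**Figure D1:**
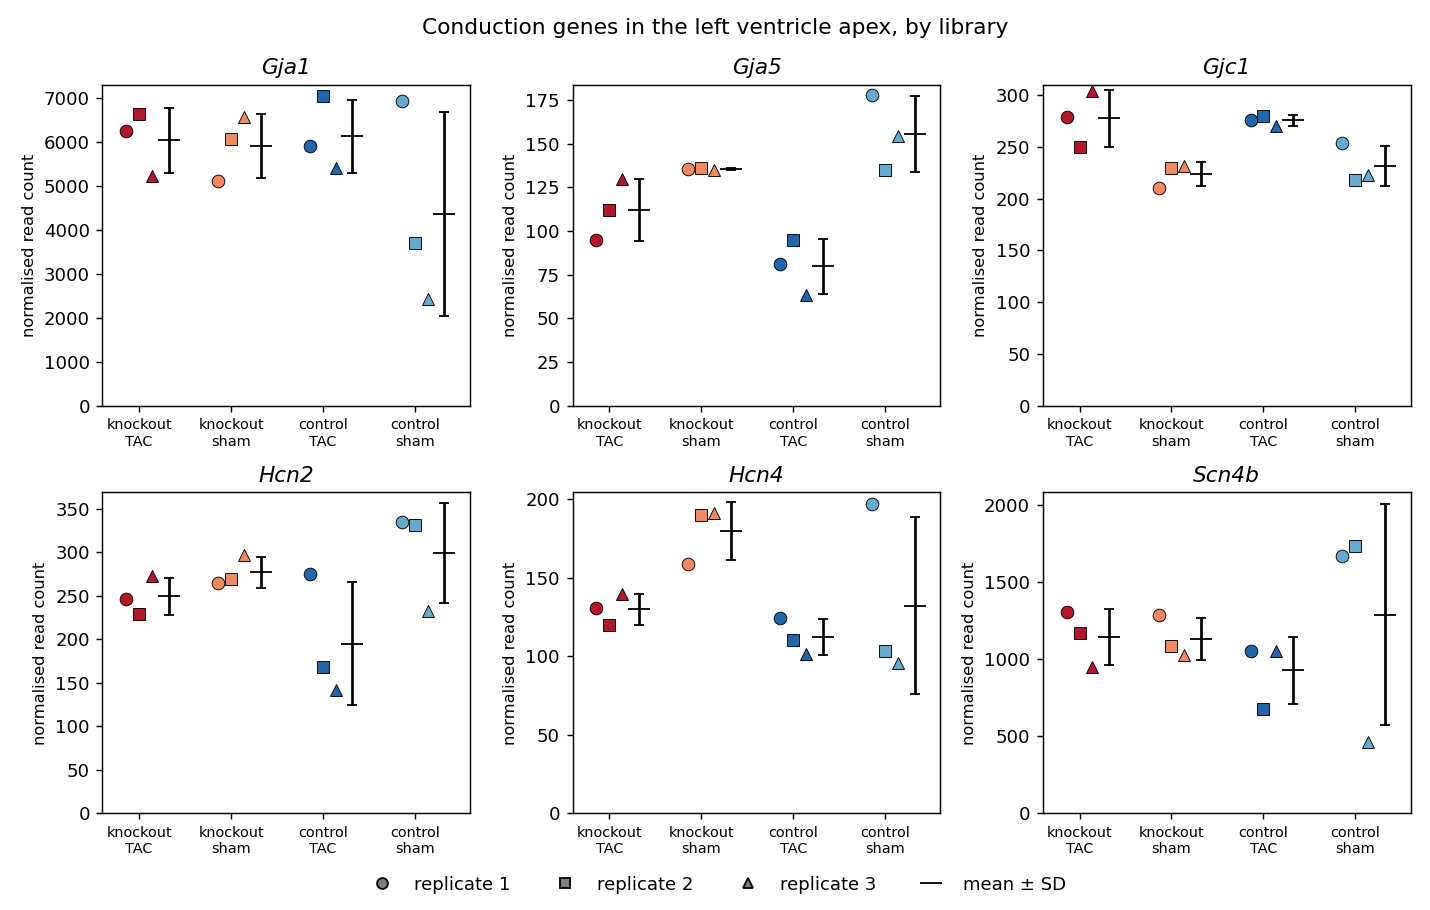
Normalised read count (vertical axis, linear, from 0) of the 6 genes in each of the 12 libraries, by group on the horizontal axis. Symbols give the replicate number, and bars give the mean ± SD of 3 libraries. For Gja5 all 6 TAC libraries lie below all 6 sham libraries, and for Gja1 and Scn4b the control sham libraries spread more than any other group.

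Gja5 encodes connexin 40. It lies on chromosome 3 of GRCm38 (chr3:96904693-97077416, plus strand). In controls its normalised read counts were 81.1, 94.8 and 63.4 after TAC, against 178, 135 and 154 after sham. Every TAC library lay below every sham library, and the lowest of the 12 was control TAC replicate 3. The means were 79.8 ± 15.7 after TAC and 156 ± 21.6 after sham (SD, n = 3 each), a change of −0.97 ± 0.19 or a fold of 0.512 (adjusted p = 0.0027). Bulk RNA cannot tell fewer cells that express a gene from less of its RNA per cell.

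In knockouts the Gja5 counts were 94.6, 112 and 129.8 after TAC, against 135, 136 and 135 after sham. The groups did not overlap here either, and the 3 sham libraries were nearly equal. The change, −0.28 ± 0.19 (95% interval −0.68 to 0.12), did not pass (adjusted p = 0.82). The TAC effect was 0.69 ± 0.27 higher in knockouts than in controls on the log2 scale, a difference that did not pass (adjusted p = 0.22; 95% interval 0.12 to 1.25). Over both genotypes Gja5 was lower after TAC by a fold of 0.649, with 6 TAC libraries at 63.4 to 129.8 and 6 sham libraries at 135 to 178. That change of −0.62 ± 0.13 passed (adjusted p = 0.0074), which made Gja5 the 1 of the 6 genes to pass over both genotypes, where 14.4% of all genes passed. Its lack of overlap over all 12 libraries was shared by 3.51% of tested genes.

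The Gja5 call in controls held under each of 13 other settings (adjusted p at most 0.024) and with each single library left out (−1.10 to −0.81, adjusted p at most 0.012). A stretch of 165 exon bases of Gja5, 2.87% of its exons, is shared with Gpr89 on the opposite strand, which held 2499 reads over all libraries beside the 1475 of Gja5. The kit marks strand, but how strand was handled in counting is not stated, so reads in that stretch are uncertain.

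The 250 bases before the RefSeq start of the 2 genes that passed in controls are shown because T-box factors and Nkx2-5 are known regulators of conduction genes, and some of these factors also changed (given further on). The bases come from RefSeq on GRCm38.p6, both on the plus strand, at chr3:97032152-97032401 for Gja5 and chr10:79716384-79716633 for Hcn2. The Gja5 start lies within the longer gene span given above. Capitals mark the T-box core GGTGT and the Nkx2-5 core AAGTG, searched on both strands.
Gja5 promoter: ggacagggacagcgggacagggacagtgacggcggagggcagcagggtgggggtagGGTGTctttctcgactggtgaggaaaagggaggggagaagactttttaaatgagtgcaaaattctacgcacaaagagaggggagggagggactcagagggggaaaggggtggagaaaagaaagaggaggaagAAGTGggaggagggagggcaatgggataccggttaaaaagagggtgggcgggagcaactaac
Hcn2 promoter: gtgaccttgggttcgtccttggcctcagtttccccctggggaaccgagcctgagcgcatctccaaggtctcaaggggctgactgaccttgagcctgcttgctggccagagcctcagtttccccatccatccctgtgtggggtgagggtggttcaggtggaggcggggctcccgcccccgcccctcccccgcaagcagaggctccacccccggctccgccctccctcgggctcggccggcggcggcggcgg

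The Gja5 window held one match to each motif, the T-box core starting at −194 and the Nkx2-5 core at −62 from the start, and the Hcn2 window held neither. Of 27025 RefSeq promoters of the same length, 36.2% hold the T-box core and 40.8% the Nkx2-5 core, so such matches are common. A GATA motif, AGATAA, was in neither window and in 10.3% of promoters. The CACCC box, with 4 matches in Gja5 and 3 in Hcn2, one of the Gja5 matches overlapping the T-box core, was in 51.3% of promoters. The windows are 56.4% GC for Gja5 and 70.4% GC for Hcn2. Promoters were found for 5 of the 6 genes, Gjc1 being the one without an entry. Hcn4, which did not pass in controls, also held a T-box core, at −233 on the minus strand. The Gja1 and Scn4b windows held neither core.

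Gja1, which encodes connexin 43, lies at chr10:56377330-56402513 on the plus strand. In controls its counts were 5921, 7053 and 5417 after TAC, against 6937, 3697 and 2439 after sham. The sham libraries ranged so widely that their highest lay above 2 of the TAC libraries. The change of 0.62 ± 0.27 did not pass (adjusted p = 0.12). Without control sham replicate 1 it was 1.02 (adjusted p = 0.0012), and without control sham replicate 3 it was 0.27.

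In knockouts Gja1 had 6252, 6649 and 5223 counts after TAC, against 5119, 6071 and 6563 after sham. These ranges overlapped almost wholly, and the change was 0.03 ± 0.27 with a 95% interval of −0.56 to 0.62. The difference between the TAC effects, −0.59 ± 0.39, did not pass (adjusted p = 0.48), and without control sham replicate 1 it was −0.99 (adjusted p = 0.031). Both Gja1 changes passed only without that library.

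Gjc1, the gene of connexin 45, lies at chr11:102799579-102819700 on the minus strand and was the steadiest of the 6, with a highest count 1.44 times its lowest over the 12 libraries. In controls it had 276, 280.2 and 270.4 counts after TAC, against 254, 218 and 223 after sham. In knockouts it had 279, 249.6 and 304 counts after TAC, against 211, 229.9 and 232 after sham. In each genotype every TAC library lay above every sham library, although the knockout TAC minimum was below the highest control sham library. The change was 0.25 ± 0.13 in controls (adjusted p = 0.18), 0.30 ± 0.13 in knockouts (adjusted p = 0.72) and 0.28 ± 0.09 over both genotypes (adjusted p = 0.055), and none of these passed. Over both genotypes Gjc1 passed in DESeq2 (0.28, adjusted p = 0.037). Over all alternatives, single left-out libraries aside, its change there ran from 0.16 to 0.28 (adjusted p 0.037 to 0.29). In controls it ran from 0.088 to 0.25 (adjusted p 0.15 to 0.70).

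Groups without overlap were thus found for 2 of the 6 genes in controls, Gja5 and Gjc1, and for 3 in knockouts, Gja5, Gjc1 and Hcn4. Over all tested genes the groups did not overlap for 35.5% in controls and 17.2% in knockouts.

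Levels of different genes can be compared only per length, as TPM (reads per exon length, scaled to the same sum in each library) over merged GENCODE M21 exons. The median over 12 libraries was 121 TPM for Gja1, 47.3 for Scn4b, 17.3 for Hcn2, 10.5 for Gjc1, 4.62 for Gja5 and 4.39 for Hcn4. The ranges of Gja1 (56.5 to 157 TPM) and Scn4b (22.1 to 71.6 TPM) overlapped, and all of Scn4b lay above Hcn2 (10.3 to 21.5 TPM). The merged exons of Gja1 hold 10257 bases and its longest transcript 3889, whereas Scn4b has 4982 by both. With the shorter length Gja1 would stand higher against Scn4b, and their overlap was not tested with it. The range of Gjc1 (8.28 to 13.5 TPM) overlapped that of Hcn2, and the ranges of Gja5 (2.56 to 6.38 TPM) and Hcn4 (3.48 to 6.92 TPM) covered much the same levels.

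Among the 20 connexin genes, Gja1 gave 72.5% ± 3.61 of TPM in knockouts after TAC and 69.2% ± 3.11 after sham, and 76.3% ± 3.37 in controls after TAC and 59.3% ± 13 after sham. Gja5 gave 2.43% ± 0.53 in knockouts after TAC and 2.84% ± 0.26 after sham, and 1.77% ± 0.20 in controls after TAC and 4.13% ± 0.95 after sham. With the longest transcript as the length, the Gja1 share was 76.2% to 87.6% by group. Within a library, the log2 ratio of Gja5 to Gja1 counts averaged −6.26 ± 0.12 in controls after TAC and −4.67 ± 0.66 after sham, and −5.74 ± 0.37 in knockouts after TAC and −5.43 ± 0.18 after sham. Over both genotypes it was lower after TAC by 0.95 on the log2 scale (two-sided exact permutation test, p = 0.015), which did not pass adjustment over 18 ratio tests (adjusted p = 0.27). With these libraries the exact permutation test over both genotypes cannot go below p = 0.005 (exact permutation test). A lone ratio therefore could not pass that adjustment, and its result does not decide whether the ratio changed.

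Hcn2 lies at chr10:79716634-79736108 on the plus strand. In controls it had 276, 168 and 142 counts after TAC, against 335, 331 and 233 after sham. Control TAC replicates 2 and 3 were below every sham library, and control TAC replicate 1 lay above control sham replicate 3. The mean was 195 ± 71.1 after TAC and 299.7 ± 57.6 after sham (SD, n = 3 each), a change of −0.66 ± 0.21 or a fold of 0.635 that passed (adjusted p = 0.034).

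This Hcn2 call was fragile. Its longest transcript is 65.4% GC, higher than 99.7% of tested genes, and in this comparison a gene's change ran against its GC content (rho = −0.44 over 13906 genes, which are not independent replicates) and with its length (rho = 0.41). With the trend of each library on length and GC removed, the change was −0.19 (adjusted p = 0.64). The call also ended with only the 6 libraries compared in the fit (adjusted p = 0.11), and without control TAC replicate 2 or 3 or control sham replicate 1 or 2 (−0.58 to −0.46). Without control sham replicate 3 it was −0.83 and passed.

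In knockouts Hcn2 had 246, 229.6 and 273 counts after TAC, against 264, 270.0 and 298 after sham. The ranges overlapped, and the change was −0.15 ± 0.21 (95% interval −0.59 to 0.28). The TAC effects differed by 0.50 ± 0.29 (adjusted p = 0.41), so the difference between genotypes did not pass.

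Hcn4, the main pacemaker channel gene of the sinus node, lies at chr9:58823412-58863175 on the plus strand. In knockouts it had 130.4, 119.8 and 139.6 counts after TAC, against 159, 189.8 and 191 after sham. All TAC libraries lay below all sham libraries, with a change of −0.46 ± 0.22 that did not pass (adjusted p = 0.74). In controls it had 124, 110.2 and 102 counts after TAC, against 197, 103 and 95.8 after sham. Here the TAC libraries lay inside the sham range, since 1 sham library was far above the other 2. The change in controls was −0.16 ± 0.22, and without control sham replicate 1 it was 0.16.

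After sham, Hcn4 was at 179.8 ± 18.3 in knockouts and 132 ± 56.4 in controls (SD, n = 3 each), a change of 0.51 ± 0.22 that did not pass (adjusted p = 0.93). Per length, Hcn2 made up 74.6% to 80.9% of the summed TPM of Hcn2, Hcn3 and Hcn4 by group, and Hcn4 18.3% to 25.2%. The Hcn4 to Hcn2 ratio passed no exact permutation test after adjustment over the 18 ratio tests (lowest adjusted p = 0.36; within 1 genotype or surgery 3 against 3 libraries cannot go below p = 0.10).

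Scn4b lies at chr9:45138395-45154152 on the plus strand and varied most, its highest count being 3.75 times its lowest. In controls it had 1054, 678 and 1054 counts after TAC, against 1667, 1736 and 463 after sham. Control sham replicates 1 and 2 were the 2 highest of all 12 libraries, and replicate 3 was the lowest. The change of −0.28 ± 0.42 did not pass (adjusted p = 0.68), whereas without control sham replicate 3 it was −0.90 (adjusted p = 0.0049).

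In knockouts Scn4b had 1309, 1171 and 947 counts after TAC, against 1286, 1084 and 1026 after sham. The 2 groups covered nearly the same range, with a change of 0.01 ± 0.42. The difference between the TAC effects was 0.28 ± 0.59 (adjusted p = 0.86), and with control sham replicate 3 and knockout TAC replicate 3 both left out it was 1.04 (adjusted p = 0.025).

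**Figure D2:**
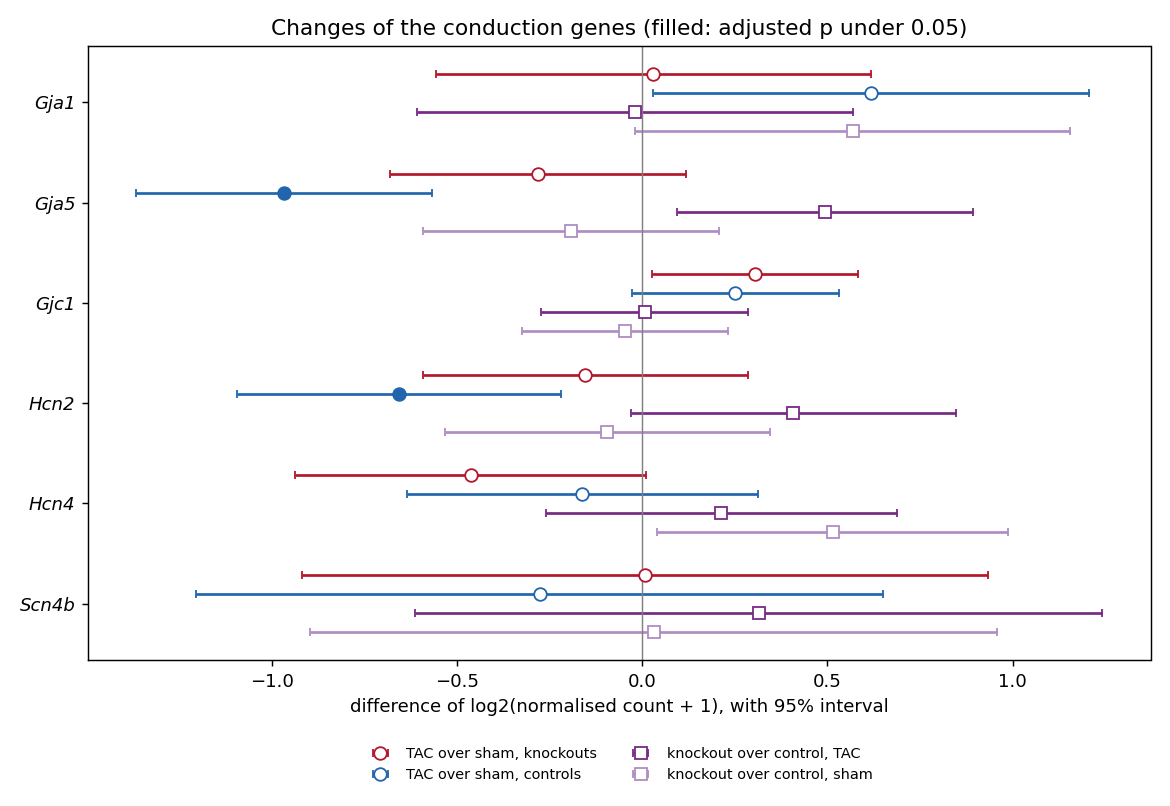
Change of each of the 6 genes in 4 comparisons (horizontal axis, difference of log2(normalised read count + 1)), with 95% intervals from the fit. Filled symbols passed at an adjusted p under 0.05. These are Gja5 at −0.97 and Hcn2 at −0.66, both for TAC against sham in controls, and every other symbol is open.

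Between genotypes, none of the 6 genes passed in limma-trend, after sham (0.0% of all genes passed) or after TAC (8.23%), nor over both surgeries (0.632%). At an unadjusted p under 0.05 there was 1 of the 6 in each of these comparisons, Hcn4 after sham, Gja5 after TAC and Hcn4 over both surgeries, and edgeR and DESeq2 also passed 0. For no gene of the 6 were knockouts and controls without overlap, after sham (9.62% of all genes) or after TAC (31.1%). After TAC, Gja5 averaged 112 ± 17.6 in knockouts and 79.8 ± 15.7 in controls (SD, n = 3 each), a change of 0.49 ± 0.19 (adjusted p = 0.11). The lowest knockout library, at 94.6, was just under the highest control library, at 94.8. Hcn2 after TAC averaged 249 ± 21.7 in knockouts and 195 ± 71.1 in controls, a change of 0.41 ± 0.21 (adjusted p = 0.23), with control TAC replicate 1 above all 3 knockout libraries.

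The difference between the TAC effects likewise passed for 0 of the 6 genes in limma-trend and edgeR, where 0.309% of all genes passed in limma-trend. DESeq2 also passed 0 but gave Gja5 and Hcn4 no adjusted p, so it did not decide for those genes. At an unadjusted p under 0.05 in limma-trend there was 1 of the 6, Gja5. In knockouts 1 of the 6, Gjc1, had an unadjusted p under 0.05 for TAC against sham, and edgeR and DESeq2 passed 0. These comparisons share libraries, so their values stand side by side and were not set against each other.

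Other genes of the same families were taken from lists, and all counts in this paragraph are of TAC against sham in controls, where the median change of all genes was 0.01. Of 20 other connexins and pannexins 5 could be tested, with a median of −0.36. Gja4 (connexin 37, of arterial endothelium) fell by 1.03, with 85.4, 83.4 and 98.8 counts after TAC against 159.8, 145 and 260.3 after sham (SE 0.23, adjusted p = 0.0057). Panx1, a pannexin that forms membrane channels rather than gap junctions, rose by 1.47 ± 0.34 (adjusted p = 0.0070). With the trend removed Gja4 no longer passed (−0.62, adjusted p = 0.057) and Panx1 did (1.25).

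Of 6 other HCN and T-type calcium channel genes and partners 4 were tested (median 0.09), and 0 passed in limma, edgeR or DESeq2, with 1 at an unadjusted p under 0.05 in limma. Over all genes 21.6% passed in limma. Hcn3 did not reach the filter. The T-type channel genes Cacna1g (0.09 ± 0.21) and Cacna1h (−0.58 ± 0.31) did not pass.

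Of 21 other sodium channel subunits and partners 13 were tested (median 0.29), and 2 passed as higher. They were Ank2 (0.95 ± 0.19) and Ank3 (0.82 ± 0.19), which encode the ankyrins that anchor channels in the membrane, and neither passed with the trend removed (0.37 and 0.35, adjusted p = 0.16 for each).

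All 13 intercalated disc genes were tested (median 0.38), and 5 rose and 1 fell, against 11% of all genes that rose and 10.6% that fell. The disc is where heart muscle cells join end to end and where Gja1 junctions sit. Dsp, the desmosomal linker desmoplakin, had 21878, 24468 and 21208 counts in controls after TAC, against 14783, 11936 and 6112 after sham (1.13 ± 0.24, adjusted p = 0.0046). Vcl, which encodes vinculin, rose by 0.93 ± 0.20, and Ctnna3, an alpha catenin, by 1.03 ± 0.22. Without control sham replicate 3 the rises were smaller, at 0.76 for Dsp, 0.67 for Vcl and 0.74 for Ctnna3. Each still passed with any single library left out (highest adjusted p = 0.024). Tjp1 (ZO-1), a scaffold that binds connexin 43, rose by 0.50 ± 0.16 (adjusted p = 0.031) but was at 0.12 with the trend removed. It also lost its call with several single libraries left out (highest adjusted p = 0.14, without control sham replicate 2). The fall was in Jup, plakoglobin (−0.39 ± 0.13, adjusted p = 0.038), and the fifth rise in Pkp2, plakophilin 2 (0.46 ± 0.14). Neither held without control sham replicate 3 (Jup −0.33, adjusted p = 0.053; Pkp2 0.32, adjusted p = 0.082), and Jup was at −0.12 with the trend removed. Both calls also ended with other single libraries left out, such as control TAC replicate 3 for Jup (adjusted p = 0.13) and control TAC replicate 2 for Pkp2 (0.15). With only the libraries compared both did not pass (adjusted p = 0.12 for Jup, 0.11 for Pkp2).

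Of 17 transcription factors of the conduction system 16 were tested (median −0.00), and 2 rose and 4 fell. Tbx5, a T-box factor needed for conduction gene expression, had 186, 123 and 220.0 counts in controls after TAC, against 478, 373 and 311 after sham (−1.15 ± 0.19, adjusted p = 0.0011). Its groups did not overlap, which held for 35.5% of all tested genes. Hopx, a homeodomain protein without DNA binding, fell by 0.79 on the log2 scale, and Nkx2-5, the cardiac homeobox factor, fell by 0.70. Nkx2-5 was at −0.05 with the length and GC trend removed, and Irx3, a factor of the fast conduction system known in mice (−0.68 ± 0.14), was at −0.26. Tbx20 rose by 1.19 ± 0.23 and kept its call with the trend removed (0.61, adjusted p = 0.032). Shox2, at low counts, rose by 1.95 ± 0.62 but lost its call with the trend removed and with only the libraries compared (adjusted p = 0.051). It also lost its call with each of 4 libraries left out in turn (1.51 to 2.18, highest adjusted p = 0.16).

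Of 11 Purkinje and conduction markers 10 were tested (median −0.18), and 1 rose, Nppa (2.91 ± 0.42), and 2 fell, Irx3 and Slc4a3 (−0.70 ± 0.18; adjusted p = 0.060 without control TAC replicate 2). Nppa encodes atrial natriuretic peptide and is also a textbook marker of ventricular load. In knockouts 0 members of these 6 lists passed for TAC against sham in limma-trend, edgeR or DESeq2. Over all genes only 0.00719% passed there in limma-trend, so 0 is near the background. In knockouts 1 disc gene, 3 transcription factors and 4 Purkinje markers had an unadjusted p under 0.05 in limma-trend, and Nppa changed by 1.01 ± 0.42 (adjusted p = 0.72).

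**Figure D3:**
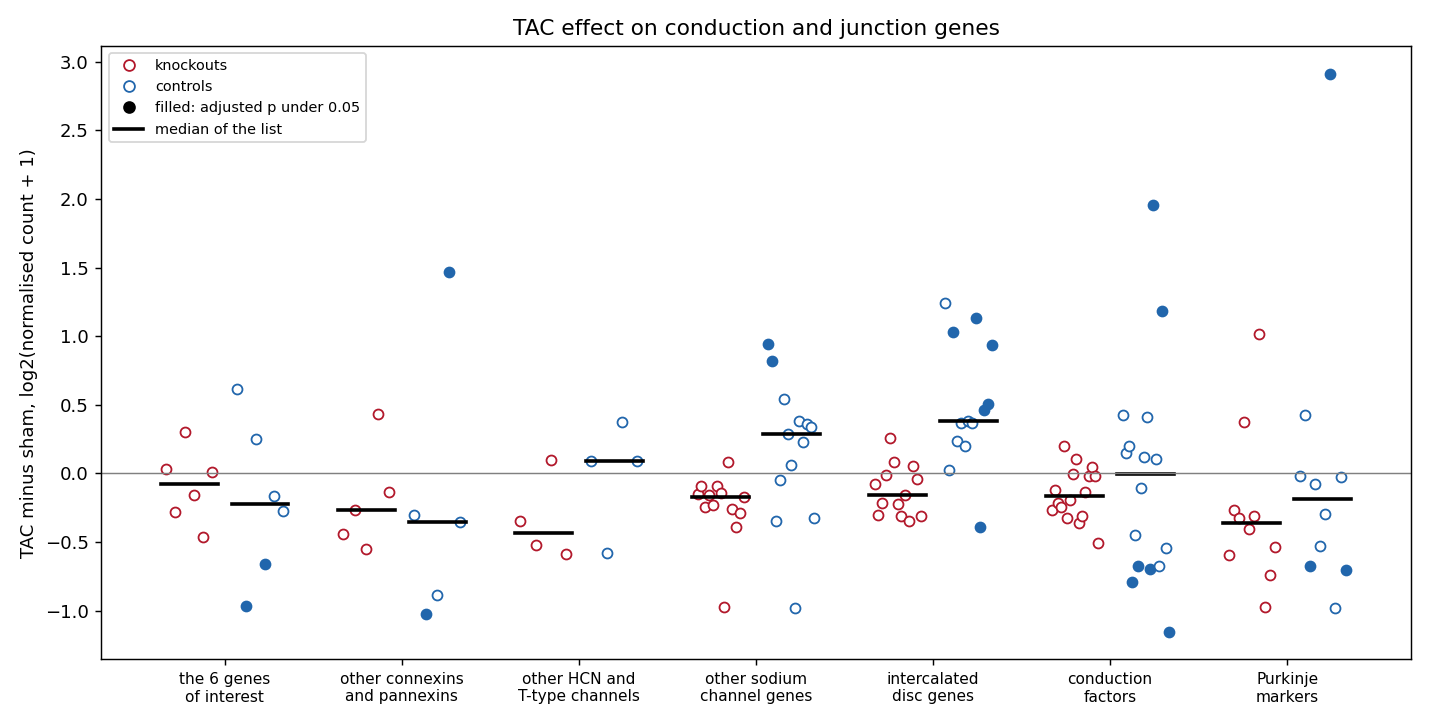
Change after TAC (vertical axis, difference of log2(normalised read count + 1)) of every tested gene of the 6 conduction genes and 6 lists, in knockouts (red) and in controls (blue). Bars are list medians and filled points passed at an adjusted p under 0.05. In knockouts all points are open (0.00719% of all genes passed there), and in controls the disc list has 6 filled points, 5 above 0 and 1 below.

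After TAC, knockouts against controls, 2 of the 13 disc genes were lower, Vcl (−0.86 ± 0.20, adjusted p = 0.016) and Dsp (−0.83 ± 0.24, adjusted p = 0.043). Of the 16 transcription factors 2 were higher, Hopx (0.66 ± 0.14) and Tbx5 (0.75 ± 0.19), and 2 were lower, Tbx20 (−0.80 ± 0.23) and Shox2 (−2.10 ± 0.62), against 4.1% of all genes higher and 4.13% lower. With 1 library left out in turn each of these 6 calls was lost for at least 1 library, control TAC replicate 2 and knockout TAC replicate 2 among them for all 6, and the highest adjusted p was 0.092 for Vcl, 0.17 for Dsp, 0.088 for Hopx, 0.13 for Tbx5, 0.16 for Tbx20 and 0.20 for Shox2. With the trend removed Dsp was at −0.38 (adjusted p = 0.40), Tbx20 at −0.39 (adjusted p = 0.23) and Shox2 at −2.10 (adjusted p = 0.068), and none of them passed. Shox2 also did not pass with a pseudocount of 0.5 (adjusted p = 0.052), only the libraries compared (0.059) or the replicate block (0.054). Dsp did not pass without a filter (adjusted p = 0.14).

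In the same comparison 0 of the tested members of the other connexin, HCN and T-type channel, and sodium channel lists passed in limma and in edgeR. Over all genes 8.23% passed in limma. At an unadjusted p under 0.05 in limma there were 1 in the connexin list, 0 in the HCN and T-type list and 3 in the sodium channel list, and DESeq2 called 1 in the connexin list and 2 in the sodium channel list.

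Markers of other cells also differed between knockouts and controls after TAC, where 4.1% of all genes were higher in knockouts and 4.13% lower. Of 10 fibroblast markers 5 were lower in knockouts, with sums, led by Gsn, of 24348 to 31794 in knockouts and 33818 to 35453 in controls. Of 10 ventricular muscle markers 5 were higher and 2 lower (1024357 to 1117629 in knockouts, 933461 to 1008636 in controls), and Myh6 led their sums. Of 7 tested mesothelial markers 2 were higher (205 to 421 in knockouts, 66.2 to 196 in controls). Of 7 tested atrial markers 4 were lower and 2 higher, and of 5 erythroid markers 2 were higher. Of 10 arterial endothelial markers 1 was higher, Hey1, and edgeR and DESeq2 also called 1. With single libraries left out Hey1 spanned 0.41 to 0.69 and lost its call for several of them (highest adjusted p = 0.14). Of 10 general endothelial markers 0 passed in limma-trend, edgeR or DESeq2. Their part in the disc and transcription factor calls was not tested.

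Markers of other cells moved with TAC in controls. Of 10 arterial endothelial markers, a list that also holds Gja4, 4 fell, namely Gja4, Hey1 (−0.89 ± 0.16), Sema3g (−0.84 ± 0.15) and Dll4 (−0.66 ± 0.18), the last 3 named after their values were seen. Without control sham replicate 3 Dll4 was at −0.41 (adjusted p = 0.054), and the other 3 still passed. Dll4 also did not pass without control TAC replicate 1 (adjusted p = 0.073), nor did Gja4 with the trend removed (adjusted p = 0.057). The summed counts of the 10 were 2469 to 2511 after TAC and 2819.7, 2882 and, in control sham replicate 3, 4171 after sham. In knockouts 0 of the 10 passed in limma-trend, edgeR and DESeq2 (0 at an unadjusted p under 0.05), with sums of 2543 to 2779 after TAC and 2518 to 2839.6 after sham. Over all genes 0.00719% passed in knockouts in limma-trend. Of 10 general endothelial markers 0 passed in controls in limma-trend (median −0.28, 4 at an unadjusted p under 0.05), whereas edgeR called 2 and DESeq2 4, and no marker of either list was at 0 throughout. Gja5 is itself known from arterial endothelium, and the part of that endothelium in its change was not tested.

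Of 7 tested atrial markers 4 rose and 2 fell in controls (median 2.11), Tbx5 being one of those that fell. Myl7, the atrial light chain, had 115, 95.8 and 212 counts in controls after TAC, against 25.6, 5.70 and 6.78 after sham (3.58 ± 0.72, adjusted p = 0.0036), and 2.90, 2.22 and 0 in knockouts after TAC. Myl4, another atrial light chain, rose by 2.59 ± 0.31 in controls (adjusted p = 9.2e-05), and both were named after their values were seen. For both genes the 3 control TAC libraries lay above all 3 control sham libraries, and groups did not overlap for 35.5% of all tested genes. The sums of the list, 1072 to 1488 after TAC and 1264 to 1726 after sham, were led by Kcnj3, which did not rise (−0.53 ± 0.19, adjusted p = 0.058). Of 10 smooth muscle and pericyte markers 3 fell (sums 18009 to 21069 after TAC, 20390.3 to 22797 after sham), and of 7 tested mesothelial markers 5 fell (66.2 to 196 after TAC, 220.3 to 552 after sham). Of 10 ventricular muscle markers 3 rose and 4 fell (sums led by Myh6, 933461 to 1008636 after TAC, 1009089 to 1030515 after sham). Of 10 fibroblast markers 3 rose and 1 fell, and of 5 erythroid markers 3 fell (2403 to 4113 after TAC, 6154 to 6724 after sham). Gja5, Nppa and Tbx5 are also known from the atria, and the part of all these markers in the changes of the 6 genes and the lists was not tested.

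**Figure D4:**
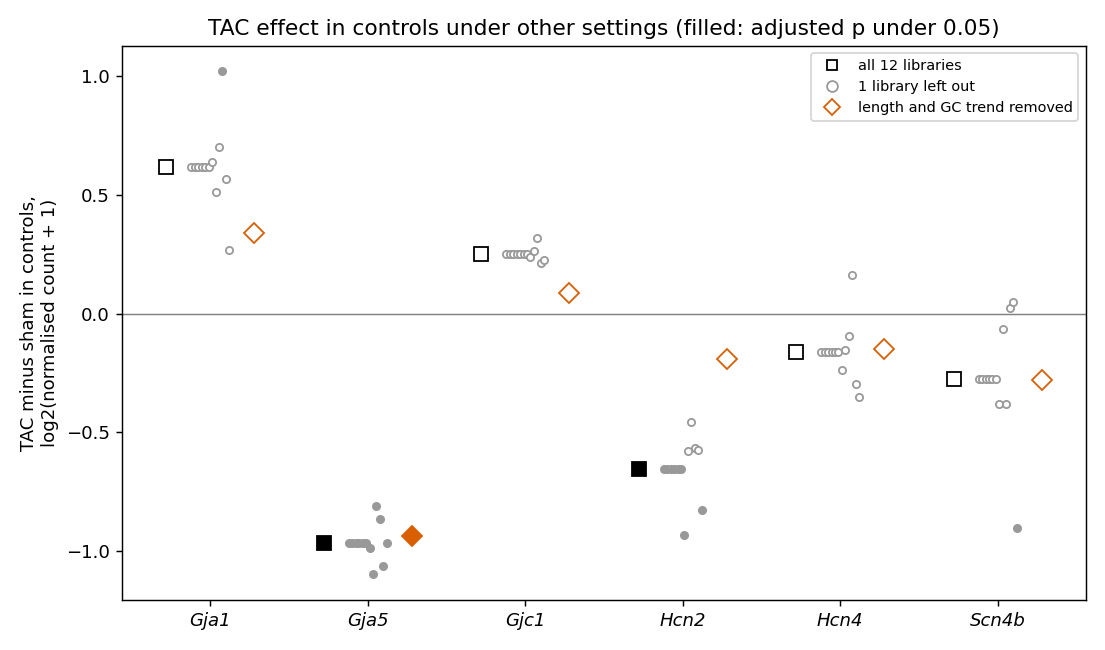
Change of the 6 genes after TAC in controls (vertical axis, difference of log2(normalised read count + 1)) with all 12 libraries, with 1 library left out in turn, and with the length and GC trend removed. Filled symbols passed at an adjusted p under 0.05. Gja5 stays between −1.10 and −0.81 and filled, Hcn2 moves to −0.19 with the trend removed, and Gja1 and Scn4b each fill in with 1 control sham library left out.

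For each of the 6 genes, the 2 named genes with the closest profile were found among 10015 genes with a mean of at least 50, by the root mean square difference of centred log2 values over 12 libraries. For Gja5 these were March9 (0.132) and Nectin2 (0.135), against a median of 0.458 over all genes compared. For Hcn2 they were Ogdhl (0.107) and Adgrd1 (0.152), and for Gjc1 Sec63 (0.065) and Atxn7l1 (0.081). For Gja1 they were Herc3 (0.159) and Tmeff1 (0.172), for Hcn4 Hspa12a (0.173) and Slc45a4 (0.184), and for Scn4b Tnfaip8 (0.197) and Nampt (0.231). None of the 6 genes was among the 2 closest to another, and the likeness is a description of these libraries.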

How the data were processed

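Left ventricle apex RNA was sequenced in 12 libraries, mapped to groups by GEO's labels. The submitters' processing notes name STAR, featureCounts, SAMtools and the build GRCm38.p6, without versions, annotation or strand setting. The deposited signal values are reads that the authors divided by one size factor per library, as read from the values: all were whole multiples of one step (100.0% within 0.01), and whole reads were recovered. IDs were named by GENCODE M21 (55480 of 56350 matched).

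limma-trend (limma 3.58.1, R 4.3.3, robust) was fitted to log2(value + 1) of 13916 genes, with 4 group means and 7 contrasts, at an adjusted p of 0.05. The plan allowed edgeR as the main test only for raw counts, so it became an alternative. Alternatives were edgeR 4.0.16 and DESeq2 1.42.0 on recovered reads, pseudocounts of 0.5 and 5, no filter or a minimum of 50, TMM and upper quartile scaling, only the libraries compared, the replicate number as a block, removal of each library's length and GC trend (loess, span 0.5), and leaving out each library. Leaving out control sham 3 and knockout TAC 3 together, and shares by the longest transcript, were added after the data were seen. Ratios were tested by exact permutation within strata (400 or 20 arrangements). The fit was tested on simulated data. Tables were made with pandas 2.3.3, scipy 1.17.1 and numpy 2.4.6 in Python 3.11.15, and plots with matplotlib 3.10.9.

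The 6 genes, lists and alternatives were chosen with earlier results of these data known. Some genes of the lists are not reported here and were left out of the list counts. Named genes were the 6 in every comparison, list members that passed (up to 4 per list and comparison, by p), Gja4, Hcn3, Tjp1, Cacna1g and Cacna1h, and the 2 genes most like each of the 6. Myh6 and Gsn were named as the genes with the highest mean of their marker lists. Pkp2, Jup in controls, Shox2 in controls, Myl7, Myl4 and the arterial markers other than Gja4 were named after their values were seen.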

Additional observations from a re-analysis of the deposited data

Results flagged for a closer look

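Hey1, an arterial transcription factor, was 1 of 3 genes named here outside the 6 whose TAC effects differed between genotypes by a test of the difference itself. It had 198, 189 and 179 counts in knockouts after TAC, against 179, 140.5 and 154 after sham, and 136, 146 and 99.8 in controls after TAC, against 232, 229.8 and 242 after sham. The difference of the TAC effects was 1.15 ± 0.23 (limma-trend, adjusted p = 0.044; with 1 library left out 0.99 to 1.26, adjusted p 0.020 to 0.17; with the length and GC trend removed 1.05, adjusted p = 0.080). DESeq2 gave it no adjusted p. The 4 other arterial and connexin genes that fell in controls or over both genotypes, Gja5, Gja4, Dll4 and Sema3g, did not pass that test. The other 2 were the atrial light chain genes Myl7 and Myl4, at −5.44 ± 1.02 (adjusted p = 0.032) and −2.40 ± 0.44 (adjusted p = 0.028). Both were higher after TAC in controls and did not pass in knockouts. In knockouts Myl7 had 2.90, 2.22 and 0 counts after TAC, against 18.31, 10.04 and 1.81 after sham, so low knockout counts made up part of its difference. Myl4 had 39.6, 28.8 and 43.6 counts in knockouts after TAC, against 34.6, 29.2 and 32.6 after sham. DESeq2 gave neither gene an adjusted p for the difference. With 1 library left out Myl7 spanned −6.23 to −4.83 (adjusted p 0.0067 to 0.13) and Myl4 −2.72 to −1.99 (adjusted p 0.0096 to 0.11), and with a pseudocount of 0.5 Myl7 no longer passed (−5.87, adjusted p = 0.053).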

How the results depend on the processing

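Of the calls given for the 6 genes, that of Gja5 after TAC in controls and over both genotypes held under all alternatives run. The number of the 6 genes passing for TAC against sham in controls was 1 with only the libraries compared and with the length and GC trend removed (with or without the replicate block), and 1 to 3 with single libraries left out. Over both genotypes it was 2 in DESeq2, with a minimum of 50 and without control sham 3 and knockout TAC 3, and 1 to 3 with single libraries left out. For the difference of the TAC effects it was 1 without those 2 libraries, and 0 to 1 with single libraries left out. The cause was not tested. Over all single-gene values and settings, 153 kept their direction and no longer passed and 14 newly passed.

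Some changes that did not pass turned sign. With the trend removed, with or without the block, Gja1 was at −0.097 for TAC in knockouts and 0.051 for knockout against control after TAC, Hcn2 at 0.083 for TAC in knockouts and 0.092 for knockout against control after sham, and Cacna1g at −0.011 for TAC in controls. Gja1 for knockout against control after TAC was 0.0064 with upper quartile scaling. Scn4b for knockout against control after sham was −0.19 in edgeR and −0.19 in DESeq2. Without control sham 3 and knockout TAC 3, knockout against control gave Gja1 0.082 and Gjc1 −0.061 after TAC, and Scn4b −0.59 after sham and −0.075 over both surgeries.

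With each library left out in turn, TAC in controls spanned −0.35 to 0.16 for Hcn4, −0.90 to 0.050 for Scn4b and −0.16 to 0.28 for Cacna1g. TAC in knockouts spanned −0.071 to 0.13 for Gja1 and −0.10 to 0.14 for Scn4b, and TAC over both genotypes −0.45 to 0.029 for Scn4b. Knockout against control spanned −0.10 to 0.086 for Gja1 and −0.061 to 0.081 for Gjc1 after TAC, −0.087 to 0.020 for Gjc1 and −0.59 to 0.36 for Scn4b after sham, and −0.054 to 0.017 for Gjc1 and −0.14 to 0.34 for Scn4b over both surgeries. The difference of the TAC effects spanned −0.015 to 0.13 for Gjc1 and −0.043 to 0.91 for Scn4b. Log2 ratios spanned −0.27 to 0.052 for Gja5 to Gja1 (knockout against control over both surgeries), −0.21 to 0.12 and −0.14 to 0.17 for Gjc1 to Gja1 (TAC over both genotypes, and knockout against control after TAC), and −0.016 to 0.21 for Hcn4 to Hcn2 (TAC over both genotypes).

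All-gene counts that moved over 1.5 times were, for TAC in controls, 3006 against 1433 with only the libraries compared, 1470 with the trend removed, 1694 with the block and the trend removed, and 1549 at the lowest with 1 library left out. For knockout against control after TAC they were 1145 against 590 and 684 with the trend removed (without and with the block), 3310 without the 2 libraries, and 202 to 2143 with 1 left out. For the difference they were 43 against 480 in DESeq2, 124 without a filter, 65 with a pseudocount of 5, 20 and 28 with the trend removed, 1143 without the 2 libraries, and 8 to 755 with 1 left out. For TAC over both genotypes they were 2008 against 1018 and 1202 with the trend removed, and 1022 at the lowest with 1 left out. For knockout against control over both surgeries they were 88 against 559 in DESeq2, 141 without a filter, 1580 without the 2 libraries, and 18 to 575 with 1 left out. For TAC in knockouts they were 1 against 23 in DESeq2, 32 with only the libraries compared, 209 without the 2 libraries, 2 without a filter, 3 with the block, and 0 to 7 with 1 left out. After sham 0 genes passed between genotypes (604 at an unadjusted p under 0.05), and 1 did in DESeq2.

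Same-numbered libraries deviated together in 3 of 18 pairs (correlation over 0.1; range −0.07 to 0.25), and libraries correlated best with their own number in 16 of 36 comparisons, so the numbers were not taken to pair libraries. With the replicate block 2 of the 6 genes passed in controls, 0 in knockouts and 1 over both genotypes, and 3151 genes passed in controls. With 3 libraries per group, and 68 to 182 reads of Gja5 and 107 to 211 of Hcn4 per library, small changes of these genes could not be detected.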
